A study of Mus musculus with 9 samples.

Results

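The genes that cut, carry and load peptides for MHC class I molecules, together with the transcription factor gene Irf1, were followed in CD11b+ cells from mouse spleen. Taken were all probe sets of the array whose annotated symbol is Tap1, Tap2, Tapbp, Psmb8, Psmb9, Psmb10, B2m or Irf1, which gave 11 of the 12488 probe sets for 8 of 8251 genes. All 11 passed the filter on dim probe sets, as did 6371 of the 8251 genes, and each gene is represented by its brightest one. The cells were sorted for CD11b, an integrin chain of myeloid cells, from spleens of female mice aged 8 to 12 weeks, and RNA was hybridized to 9 one-color Affymetrix MG-U74Av2 arrays, 3 in each of 3 groups. The tumor-free group came from mice without a tumor, the fresh group from mice with a tumor and no culture (time 0 in the labels), and the cultured group from mice with a tumor after 24 h in complete medium. The labels give neither the strain nor the tumor, nor whether mice were pooled, and no tumor-free cells were cultured, so an effect of culture in itself cannot be told apart from one on cells of tumor-bearing mice. Whether the 3 arrays of a group hold different mice is not in the labels, and p-values speak only of how far these samples scatter, which may be technical scatter.

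MHC class I molecules show peptides from inside the cell to CD8+ T cells. The proteasome cuts proteins into such peptides, and in cells exposed to interferon gamma the inducible subunits encoded by Psmb8, Psmb9 and Psmb10 replace constitutive ones and form the immunoproteasome. The transporter made of Tap1 and Tap2 moves the peptides into the endoplasmic reticulum, where tapasin (Tapbp) holds empty class I molecules beside it, and beta-2 microglobulin (B2m) is the light chain that every class I molecule needs. Irf1 is itself induced by interferon gamma and by NF-kB, and it activates many of these genes. In myeloid cells the pathway is known as one of the standard marks of an interferon response.

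The promoter windows of the members show which known interferon elements lie next to their start sites, so they are given before the values. RefSeq windows of GRCm38.p6, each with 250 bases before and 50 after the annotated start, matched 7 of the 8 genes by symbol (all except Tap2) and made 8 windows of 300 bases, Irf1 having a pair of start sites. On both strands they were searched for GAAANNGAAA, the interferon-stimulated response element that IRF factors bind, for TTCNNNGAA, the gamma-activated site known from interferon gamma-responsive promoters, and for the NF-kB consensus. Of all 32851 windows of this length, 3.44% held the first, 8.3% the second and 8.46% the NF-kB consensus. Capitals mark the matches in these windows of B2m (chr2:122147437-122147736, plus strand), Irf1 (chr11:53769764-53770063, plus strand) and Psmb8 (chr17:34197945-34198244, plus strand), the 3 windows that held any. The window of Tap1 (chr17:34187306-34187605, plus strand) is shown beside them, in lower case because it held no match, since it is also most of that of Psmb9.
B2m: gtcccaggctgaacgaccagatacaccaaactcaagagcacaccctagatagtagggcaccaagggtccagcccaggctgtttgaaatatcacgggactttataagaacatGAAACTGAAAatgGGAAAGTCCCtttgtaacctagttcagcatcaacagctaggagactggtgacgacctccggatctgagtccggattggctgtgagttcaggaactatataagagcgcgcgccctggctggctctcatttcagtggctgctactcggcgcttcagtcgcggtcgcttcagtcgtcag
Irf1: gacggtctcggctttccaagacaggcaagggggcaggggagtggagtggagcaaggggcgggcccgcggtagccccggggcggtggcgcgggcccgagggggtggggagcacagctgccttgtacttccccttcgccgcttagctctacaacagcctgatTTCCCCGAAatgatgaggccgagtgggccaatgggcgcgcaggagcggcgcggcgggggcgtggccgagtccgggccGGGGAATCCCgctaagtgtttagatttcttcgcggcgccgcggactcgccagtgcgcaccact
Psmb8: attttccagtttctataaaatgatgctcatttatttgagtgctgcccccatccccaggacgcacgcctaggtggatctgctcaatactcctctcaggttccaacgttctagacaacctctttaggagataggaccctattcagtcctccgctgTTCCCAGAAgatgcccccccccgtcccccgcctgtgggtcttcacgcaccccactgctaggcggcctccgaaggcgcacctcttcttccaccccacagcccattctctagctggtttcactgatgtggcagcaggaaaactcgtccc
Tap1: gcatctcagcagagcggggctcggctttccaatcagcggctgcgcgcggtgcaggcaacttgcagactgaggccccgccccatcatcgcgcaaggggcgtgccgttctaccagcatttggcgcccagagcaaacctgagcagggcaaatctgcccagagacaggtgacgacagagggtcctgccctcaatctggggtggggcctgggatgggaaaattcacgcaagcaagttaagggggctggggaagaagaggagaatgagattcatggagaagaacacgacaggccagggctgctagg
In B2m the response element match GAAACTGAAA lies at bases -139 to -130 from the start site and an NF-kB match on the other strand at -126 to -117. In Irf1 the gamma-activated site match TTCCCCGAA lies at -90 to -82 and the NF-kB match GGGGAATCCC, which fits the consensus on both strands, at -13 to -4. Psmb8 holds the gamma-activated site match TTCCCAGAA at -97 to -89. The windows of Tap1 and Psmb9, which are read in opposite directions, shared 275 of their 300 bases. In the RefSeq order Psmb9, Tap1, Psmb8 and Tap2 follow one another as neighbors on chromosome 17. The matches describe letters only, and a window without one says nothing about the factor.

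Values are MAS5 signals, a linear brightness per probe set with nearly the same trimmed mean on all 9 arrays (100.06 to 100.08). In each group 1 array stood apart, with a lowest correlation across probe sets to its own group of 0.824 for tumor-free 1, 0.874 for fresh 3 and 0.850 for cultured 3, against at least 0.929 within the pairs of the remaining arrays. Each of these arrays also lay apart from the other two of its group in bacterial spike-in signal. The 3'/5' signal ratio of beta-actin, a measure of RNA integrity, was 2.57 on tumor-free 1 (0.994 and 1.19 in the rest of its group), 1.35 on fresh 3 (1.60 and 1.58 in the rest) and 1.16 on cultured 3 (2.27 and 2.36 in the rest). That of Gapdh was 1.63, 1.69 and 0.836 on these 3 arrays and 0.924 to 1.26 on the others. Itgam, which encodes CD11b, had signals of 244 to 954. Of 26 tested markers of myeloid, dendritic, B, T, NK, plasma and erythroid cells, none passed limma's test in any comparison (at an unadjusted p below 0.05 they were 7 for fresh against tumor-free, 4 for cultured against fresh and 2 for cultured against tumor-free). In the same order, 1109, 1078 and 915 of all 6371 genes tested had an unadjusted p below 0.05. Of 8 macrophage markers C1qa, C1qb and Mrc1 were lower in fresh than in tumor-free cells, Mrc1 was lower after culture, and C1qa, C1qb, C1qc and Mrc1 were lower in cultured than in tumor-free cells. The summed macrophage signal was 1980 to 9607 in tumor-free, 777 to 1299 in fresh and 371 to 872 in cultured arrays, lowest among tumor-free arrays on tumor-free 1. Of 9 neutrophil markers Cxcr2 was lower in both tumor-bearing groups than in tumor-free cells and Mpo was lower after culture, with summed signals of 28943 to 45468, 42032 to 52799 and 14767 to 40248 in the 3 groups. All 4 pancreas markers tested, Prss2, Ctrb1, Cel and Reg1, were higher in the fresh arrays than in either other group, with sums of 5208 to 8905 against at most 329 in tumor-free and 685 in cultured ones. How far these shifts enter the members' values was not tested.

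Comparing cultured with fresh cells of tumor-bearing mice asks what 24 h in medium does to these genes. Irf1 rose 5.40-fold, Tap1 4.69-fold and Tapbp 3.17-fold, and the other 5 members lay higher by 1.87 to 3.44-fold without passing the test. In all, 3 of 8 members were called higher and none lower, where 1.41% of the 6371 genes tested were called higher. Without tumor-free 1, fresh 3 and cultured 3, a choice made after seeing the data that removes spread by construction, 6 of 8 were called higher (also Psmb8, Psmb9 and B2m), where that fit called 9.75% of all genes higher. For 7 of the 8, all except Psmb10, every cultured array lay above every fresh array, as was so for 13.8% of the genes tested. The median difference of the members was 1.53 on the log2 scale, against 0.02 for all genes. Calls are adjusted p-values below 0.05 from limma with Benjamini-Hochberg adjustment over 8695 probe sets, and differences are of log2(signal + 7.83). In RNA from a mixed sort, fewer cells of a type and less RNA per cell cannot be told apart.

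Irf1, the transcription factor, had signals of 158, 152 and 197 on the fresh arrays 1, 2 and 3 and of 748, 844 and 1315 on the cultured ones. The lowest cultured array was far above the highest fresh one, and cultured 3 was the highest of all. The log2 difference was 2.43 ± 0.26 (SE, n = 3 per group, limma adjusted p = 8.57e-04). Every error given with ± is such a standard error of the model. It lay between 2.19 and 2.60 when any 1 array was left out, with an adjusted p of at most 0.0108. Within the arrays of high and of low spike-in signal it was 2.30 and 2.69, the latter from 1 array per group, fresh 3 and cultured 3.

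Of the transporter genes, Tap1 passed the test and Tap2 did not. Tap1 had 157, 168 and 217 on the fresh and 591, 938 and 1181 on the cultured arrays, a log2 difference of 2.23 ± 0.31 (limma adjusted p = 0.00452, at most 0.0320 without any 1 array). Tap2, its partner in the transporter, had 87.8, 85.3 and 99.4 against 107, 214 and 237, a difference of 0.90 ± 0.30 that did not pass (limma adjusted p = 0.155). The cultured array nearest the fresh ones was cultured 1, and without it Tap2 was at 1.24 (adjusted p = 0.0493). The difference between the changes of Tap1 and Tap2 was not tested.

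Tapbp, encoding the loading factor tapasin, was nearly level in the fresh arrays, at 556, 572 and 597, and had 1315, 2054 and 2314 in the cultured ones. Its log2 difference was 1.67 ± 0.26 (limma adjusted p = 0.00791). The call was lost without fresh 1, where the difference was 1.64 (adjusted p = 0.0520). B2m, the light chain, had 2624, 2198 and 2143 in fresh and 3653, 4940 and 4922 in cultured arrays. The groups did not overlap, but the difference of 0.95 ± 0.26 did not pass the test (limma adjusted p = 0.0865).

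The immunoproteasome genes did not pass the test, and in culture their 3 arrays lay far apart. Psmb8 had 318, 303 and 311 in fresh arrays, and 507, 679 and 1668 in cultured ones, where cultured 3 held more than the other two together. The difference was 1.40 ± 0.46 (limma adjusted p = 0.148), and 0.90 without cultured 3. Psmb9 had 115, 72.8 and 133 against 219, 330 and 733, a difference of 1.78 ± 0.53 (limma adjusted p = 0.110) that passed in 1 of the 9 fits without 1 array, that without tumor-free 1 (adjusted p = 0.0294), which enters only through the shared estimate of the spread. Psmb10 had 260.4, 275 and 195 against 214, 414 and 1084. Cultured 1 lay among the fresh arrays, and its difference of 0.91 ± 0.48 (limma adjusted p = 0.380) was 0.30 without cultured 3. For all 3 subunits cultured 3 was the highest array, and among cultured arrays it also had the highest summed signal for 6 of the 10 marker lists (neutrophil, macrophage, B, NK, plasma and erythroid) and the lowest for 3 (myeloid, dendritic and T). Sums of linear signals follow the brightest genes of a list, and single markers were split. Of the myeloid markers Itgam, Itgb2 and Cd68 were highest on cultured 3 among cultured arrays, and Lyz2, Csf1r and Fcgr3 were lowest. Of the plasma cell markers Jchain and Xbp1 were highest there and Sdc1 was lowest. S100a8 and S100a9 of the neutrophil list were not highest there. The part of the marker signals in the differences was not tested. Within the arrays of high spike-in signal, which leave out cultured 3, the differences of Psmb8, Psmb9 and Psmb10 were 0.90, 1.47 and 0.15, and within those of low signal 2.39, 2.40 and 2.43, from 1 array per group.

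**Figure D1:**
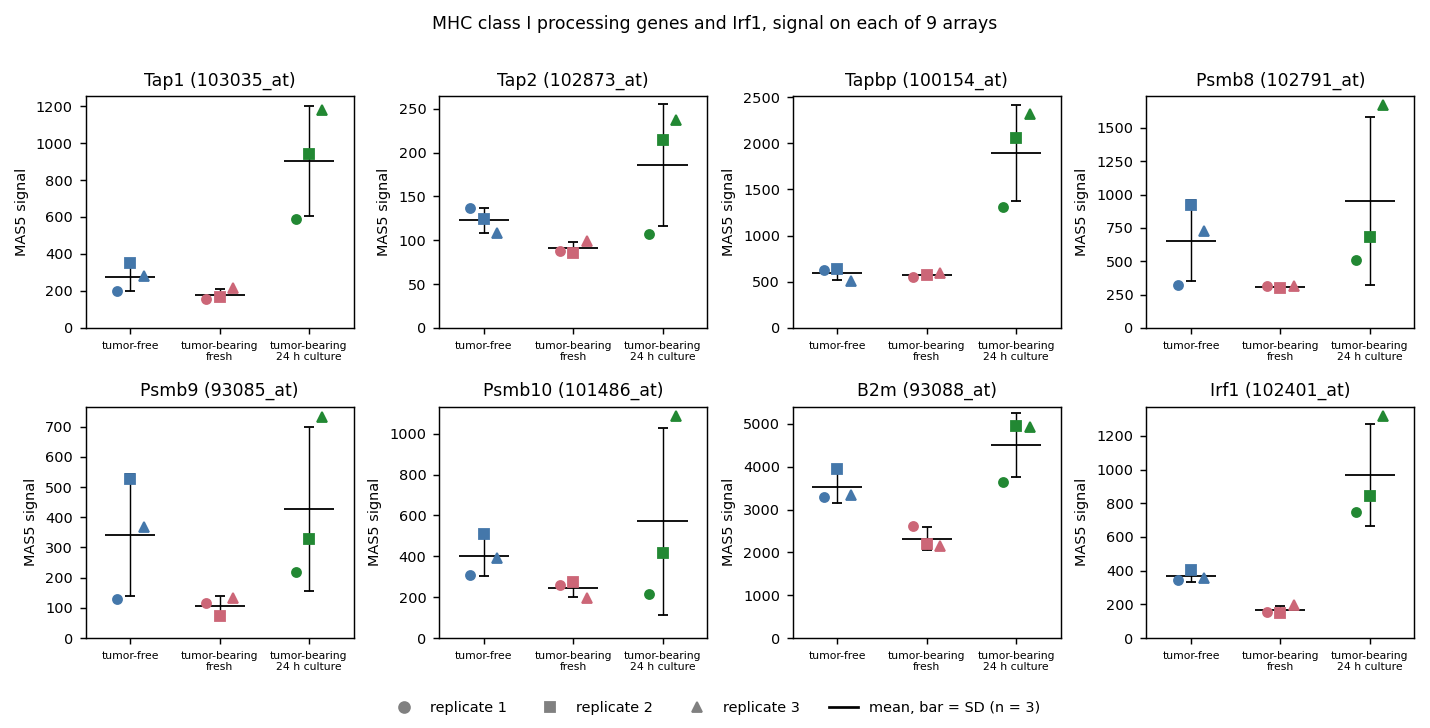
MAS5 signal (vertical axes, linear from 0) of the representative probe set of each of the 8 genes on the 9 arrays, by group, with symbols for replicates 1 to 3, lines for the mean and bars for the SD of 3 arrays. Irf1, Tap1 and Tapbp are clearly separate in the cultured group, and the 3 Psmb panels show cultured 3 far above cultured 1 and 2, with Psmb8 at 1668 against 507 and 679.

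Fresh cells of tumor-bearing mice were then compared with those of tumor-free mice, which asks how these genes differ with a tumor before any culture. None of the 8 members was called by limma, where 1.07% of all genes were called lower. For 3 of them, Irf1, Psmb9 and B2m, the unadjusted p was below 0.05, as for 1109 of the 6371 genes tested. Without tumor-free 1, fresh 3 and cultured 3 together, 4 of 8 were called lower (Tap1, Psmb8, Psmb9 and Irf1), where that fit called 14.5% of all genes lower. By representative probe sets all 8 differences were below 0, with a median of -0.65 against -0.01 for all genes. For Irf1, Tap2, Psmb8, Psmb10 and B2m every fresh array lay below every tumor-free one, as for 14.0% of the genes tested. Of the further probe sets, Tap1 162278_r_at was at 0.67 and Tapbp 162104_f_at at 0.36 (limma adjusted p = 0.440 and 0.563). The remaining Tapbp probe set, 102689_at, was at -0.03. This comparison and the one with culture share the fresh arrays, so low fresh values enter both.

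Irf1 had signals of 344, 407 and 356 on the tumor-free arrays 1, 2 and 3, against 158, 152 and 197 on the fresh ones. All tumor-free arrays lay above all fresh ones, by 2.14-fold in the model. The log2 difference was -1.10 ± 0.26 (limma adjusted p = 0.0658). Of the 9 fits that each left out 1 array, 2 called it, without tumor-free 1 (adjusted p = 0.0354) and without cultured 3 (adjusted p = 0.0261), and 7 did not (adjusted p up to 0.255). When the class of spike-in signal entered the model, the difference was -0.97 (limma adjusted p = 0.0396).

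Among tumor-free arrays the immunoproteasome genes lay far apart. Psmb9 had 129, 528 and 368, so that tumor-free 1 was level with the fresh arrays and the other two were well above them. Its difference was -1.43 ± 0.53 (limma adjusted p = 0.206), and -2.01 without tumor-free 1 (adjusted p = 0.0242), the only 1 of the 9 fits without 1 array that called it. Psmb8 had 322, 919 and 725, again with tumor-free 1 close to the fresh values, and a difference of -0.93 ± 0.46 (adjusted p = 0.331). Psmb10 had 308, 508 and 393, with a difference of -0.70 ± 0.48 (adjusted p = 0.475). Tumor-free 1 was the lowest tumor-free array for all 3 subunits, and it also had the lowest summed signal of its group for 8 of the 10 marker lists, all except plasma cells, where it was the highest, and pancreas. Single markers did not all follow these sums. Of the plasma cell markers only Xbp1 was highest on tumor-free 1 (2212 against 337 and 349), and Jchain and Sdc1 were lowest. S100a8, S100a9, Mrc1 and Itgam were highest there, though the sums of their lists were lowest. All other neutrophil and macrophage markers were lowest there. The part of the marker signals in the low Psmb values was not tested.

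The transporter and loading genes did not pass either. B2m had 3293, 3957 and 3332 in tumor-free arrays, a difference of -0.60 ± 0.26 to the fresh ones (limma adjusted p = 0.276). Tap1 had 198, 352 and 282 (-0.57 ± 0.31, adjusted p = 0.369) and Tap2 137, 124 and 108 (-0.40 ± 0.30, adjusted p = 0.516). Tapbp had 628, 635 and 512, and its difference of -0.03 ± 0.26 (adjusted p = 0.958) had a 95% interval of -0.61 to 0.54.

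**Figure D2:**
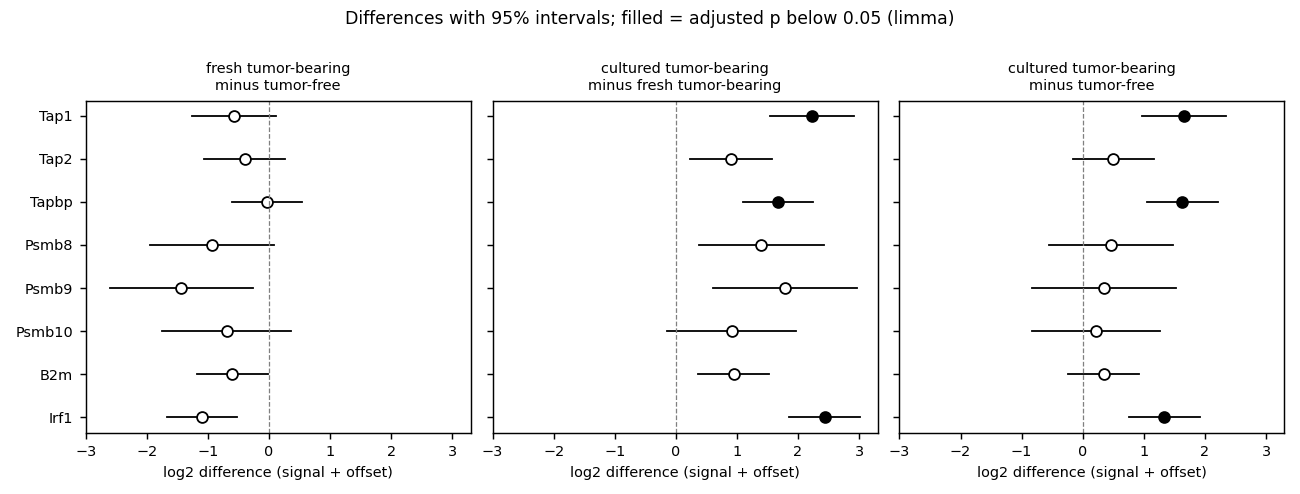
Log2 differences of signal plus offset (horizontal axes) with 95% intervals for the representative probe sets of the 8 genes in the 3 comparisons, filled where the adjusted p of limma was below 0.05. All 8 points lie below 0 in the first panel with none filled, and all 8 above 0 in the second, where Tap1, Tapbp and Irf1 are filled, as they are in the third.

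Cultured cells of tumor-bearing mice were also set against uncultured cells of tumor-free mice, a comparison in which tumor and culture cannot be told apart. Tap1, Tapbp and Irf1 were called higher, 3 of 8 members where 0.487% of all genes were. The same 3 were the members whose groups did not overlap, as was so for 9.81% of the genes tested. Without tumor-free 1, fresh 3 and cultured 3 together the same 3 were called, where that fit called 9.78% of all genes higher. The median difference of the members was 0.48, against 0.03 for all genes. Tap1 was higher by 1.66 ± 0.31 (limma adjusted p = 0.0299), Tapbp by 1.63 ± 0.26 (adjusted p = 0.0147) and Irf1 by 1.33 ± 0.26 (adjusted p = 0.0362). All 3 calls were lost without tumor-free 2, tumor-free 3 or cultured 2. Those of Tap1 and Irf1 were also lost without fresh 1 or fresh 2, and that of Irf1 without cultured 1 (adjusted p up to 0.124, 0.0873 and 0.165 for Tap1, Tapbp and Irf1).

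In this comparison the immunoproteasome genes and B2m overlapped between groups. Psmb8 differed by 0.47 (95% interval -0.55 to 1.48), Psmb9 by 0.35 (-0.83 to 1.52), Psmb10 by 0.22 (-0.83 to 1.27) and B2m by 0.34 (-0.23 to 0.92). Tap2 was at 0.50 ± 0.30 (limma adjusted p = 0.507). The differences of Psmb8, Psmb9 and Psmb10 turned negative without cultured 3, to -0.03, -0.13 and -0.39, and that of Psmb9 also without tumor-free 1, to -0.22. For all 8 members, by their representative probe sets, the mean signal was lowest in fresh and highest in cultured cells. For Psmb8, Psmb9 and Psmb10 this order did not hold without cultured 3. The share of all genes with this order was not counted. Neighbors in that order passed the test only for cultured above tumor-free cells in Tap1, Tapbp and Irf1.

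Tap1 and Tapbp had further probe sets, none of which passed the test. The second Tap1 probe set (162278_r_at) was dim, at 18.8 to 104 over the 9 arrays against 157 to 1181 for the representative 103035_at. It differed by -0.39 ± 0.42 between cultured and fresh cells, opposite in sign to the representative and not passing the test (limma adjusted p = 0.726). Of the other Tapbp probe sets, 102689_at had 208, 180 and 148 in fresh and 223, 290 and 721 in cultured arrays. Here too all cultured arrays lay above all fresh ones, with a difference of 0.995 ± 0.43 (adjusted p = 0.276) that was 0.50 without cultured 3. The last, 162104_f_at, whose suffix marks probes shared with similar sequences, differed by 0.24 ± 0.30 (adjusted p = 0.768). The calls for Tap1 and Tapbp therefore rest on 1 probe set each.

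**Figure D3:**
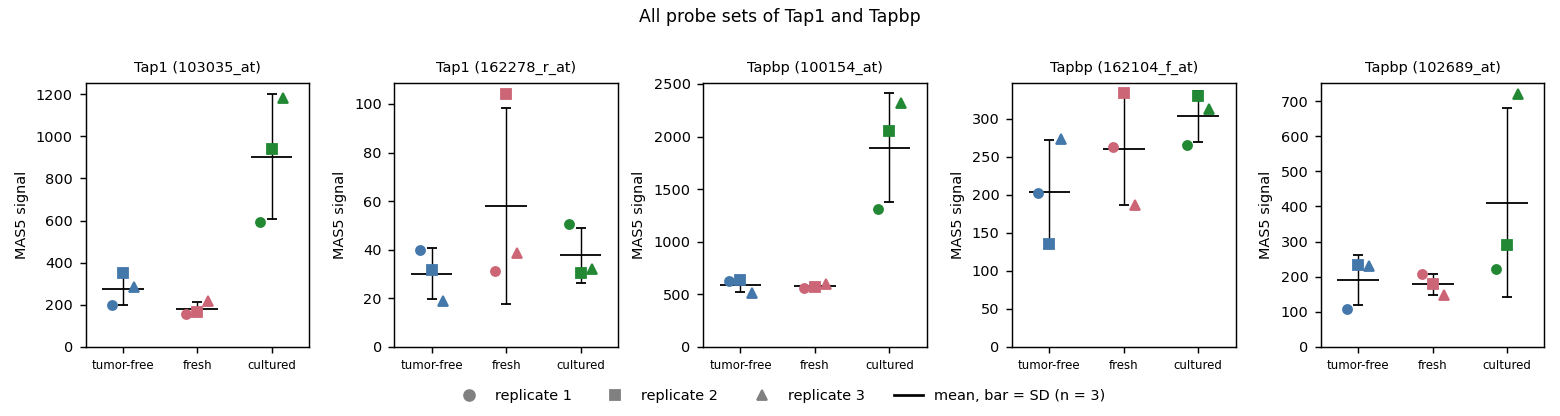
MAS5 signal (vertical axes, linear from 0) of both Tap1 and all 3 Tapbp probe sets on the 9 arrays by group, with means and SD bars over 3 arrays. The cultured arrays stand clear of the others for 103035_at and 100154_at, but overlap them for 162278_r_at, which reaches at most 104.

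The inducible subunits replace constitutive ones position by position, so each was set against its counterpart on the same array. The measure was the log2 difference of Psmb8 minus Psmb5, Psmb9 minus Psmb6 and Psmb10 minus Psmb7, and its change between groups, in 9 exact permutation tests. With 3 arrays against 3 the smallest two-sided p is 0.10, so none could pass. From fresh to cultured cells the Psmb9 difference moved by 1.29 and that of Psmb10 by 0.87, without overlap (exact permutation p = 0.1 and adjusted p = 0.225 for each). From tumor-free to fresh cells they moved by -1.22 and -0.48, again without overlap and with the same p-values. Psmb8 minus Psmb5 moved by 0.02 in culture (exact permutation p = 1), and by -0.38 without cultured 3. Psmb5 itself, a constitutive subunit, rose in culture from 185, 169 and 168 to 389, 480 and 535 (log2 difference 1.38 ± 0.25, limma adjusted p = 0.0158), a call lost without fresh 1, fresh 2 or cultured 2 (adjusted p up to 0.0772). A further Psmb5 probe set differed by -0.22 (adjusted p = 0.880), so both the rise and the comparison with Psmb8 rest on 1 Psmb5 probe set. Psmb6 and Psmb7 differed by 0.49 and 0.04 in culture and did not pass.

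Other genes of the pathway were read from 7 lists, counted by their representative probe sets. Of all 6371 genes tested, 1078 had an unadjusted p below 0.05 in culture. For fresh and for cultured against tumor-free cells they were 1109 and 915. In culture 1 of 4 proteasome activator and assembly genes rose, Psme1, a subunit of the interferon-inducible PA28 activator. It had 208, 267 and 149 in fresh and 599, 918 and 1084 in cultured arrays (2.02 ± 0.30, limma adjusted p = 0.00580, at most 0.0341 without any 1 array). The median of that list was 0.65. None of 9 class I heavy chain genes passed (limma, 5 at an unadjusted p below 0.05), and their median was 0.85. H2-K1 and H2-D1, the classical heavy chains, were at 0.98 ± 0.26 (adjusted p = 0.0778) and 1.02 ± 0.28 (adjusted p = 0.0862), with all cultured arrays above all fresh ones. H2-Q4 and H2-T24 were at 1.93 and 1.67 (adjusted p = 0.0911 and 0.108). Further probe sets of H2-K1 (97125_f_at, 1.58, adjusted p = 0.0192) and H2-D1 (97541_f_at, 1.58, adjusted p = 0.00493) did pass, that of H2-K1 not without fresh 1, fresh 2 or cultured 2 (adjusted p up to 0.0986). Others of H2-K1 (97700_at, 1.04, adjusted p = 0.234) and H2-D1 (101886_f_at, 1.15, adjusted p = 0.225) did not. Heavy chain genes are near copies of one another, so these probe sets can read several of them. None of 4 genes of peptide loading and folding passed (limma, 0 at an unadjusted p below 0.05). Their median was -0.38, with the chaperone genes Hspa5 at -0.80 and Canx at -0.41 and the disulfide isomerase gene Pdia3 at -0.34. A further Canx probe set was at 0.16 (adjusted p = 0.840), and Pdia3 was at -0.016 without fresh 3 and -0.83 without cultured 3.

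Among 6 other interferon regulatory factor genes, 2 rose in culture. Irf7, the factor that drives type I interferon production, went from 63.8, 62.6 and 84.7 to 286, 345 and 933 (2.57 ± 0.39, limma adjusted p = 0.00706, at most 0.0429 without any 1 array). Its further probe set (162202_f_at) was at 0.92 and did not pass (adjusted p = 0.217), so the call rests on 1 probe set. Irf8, a lineage factor of monocytes and dendritic cells, went from 173, 157 and 95.4 to 434, 954 and 347 (1.87 ± 0.38, adjusted p = 0.0253), a call lost without any 1 fresh array, cultured 1 or cultured 2 (adjusted p up to 0.0849). Irf4 went the other way, from 94.8, 116 and 306 to 10.6, 36.8 and 61.0. All its cultured arrays lay below all fresh ones, but the difference of -2.05 ± 0.66 did not pass (adjusted p = 0.141). The median of the list was 0.36. None of 8 genes known as Irf1 targets passed (limma, 4 at an unadjusted p below 0.05), with a median of 0.97. Gbp2, a GTPase gene, was at 3.79 ± 0.90 (adjusted p = 0.0513), with 104, 254 and 1934 in the cultured arrays, and 2.62 without cultured 3. The nitric oxide synthase gene Nos2 was at 1.60 ± 0.40 (adjusted p = 0.0608) and the inflammatory caspase gene Casp1 at 1.41 ± 0.44 (adjusted p = 0.129). None of 9 interferon receptor and signaling genes passed by its representative probe set (limma, 2 at an unadjusted p below 0.05), and their median was 0.07. The feedback inhibitor genes Socs3 and Socs1 were at -1.17 ± 0.44 (adjusted p = 0.205) and 1.02 ± 0.36 (adjusted p = 0.182). The interferon receptor gene Ifnar1 was at 0.69, and at 0.18 without fresh 2 and 1.20 without fresh 3. A further Socs3 probe set passed at -1.97 (adjusted p = 0.0222), though not without any 1 fresh array or cultured 2 (adjusted p up to 0.0728). Of the 3 constitutive counterparts 1 rose, Psmb5 as above, and the list median was 0.49.

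In the fresh against the tumor-free comparison 1 gene of these lists was called. Irf7 had 261, 345 and 273 in tumor-free arrays and was lower in fresh ones (log2 difference -1.95 ± 0.39, limma adjusted p = 0.0304), a call lost without tumor-free 2, tumor-free 3 or any 1 fresh array (adjusted p up to 0.147). The further Irf7 probe set was at -0.33 (adjusted p = 0.662). Irf8 was at -1.61 ± 0.38 (adjusted p = 0.0642). No heavy chain gene passed (limma, 3 of 9 at an unadjusted p below 0.05), and H2-T24 was at -1.56 ± 0.50. None of the 4 loading, 4 activator and assembly, 3 constitutive, 9 receptor and signaling and 8 target genes passed (limma, 0, 1, 0, 1 and 3 at an unadjusted p below 0.05), Psme1 being at -0.99 ± 0.30 and Jak2, a kinase of the interferon gamma receptor, at 0.75 ± 0.27 (adjusted p = 0.123 and 0.189), with a further Jak2 probe set at 0.04. Among targets the largest differences were -2.56 ± 1.08 for the adhesion gene Vcam1 (adjusted p = 0.267) and -1.80 ± 0.90 for Gbp2 (adjusted p = 0.334). Vcam1, also one of the 8 macrophage markers, had 55.2, 1975 and 2316 in tumor-free and 75.5, 77.2 and 194 in fresh arrays, so that tumor-free 1 lay below all of the fresh arrays. Without tumor-free 1 its difference was -4.25 and was called (adjusted p = 1.35e-04), and without the other single arrays it was not. Its further probe sets were at -0.95 and -1.44 (adjusted p = 0.515 and 0.302). The medians were -0.63 for heavy chains, -0.30 for loading, -0.52 for activators and assembly, -0.21 for constitutive subunits, 0.07 for receptors and signaling, -0.57 for the other factors and -0.74 for targets.

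Between cultured and tumor-free cells Psmb5 was the only gene of the lists called by its representative probe set (1.23 ± 0.25, limma adjusted p = 0.0411). That call was lost without any 1 array except tumor-free 1 (adjusted p up to 0.194). The further Psmb5 probe set was at -0.11 (adjusted p = 0.948), so the call rests on 1 probe set. Nos2, at 1.88 ± 0.40, missed the threshold (adjusted p = 0.0503), and Psme1 was at 1.03 ± 0.30 (adjusted p = 0.141). Irf7 and Irf8, at 0.62 and 0.27, did not pass, nor did Vcam1 at -3.60 ± 1.08 (adjusted p = 0.162), which was called only without tumor-free 1 among the fits without 1 array (-5.30, adjusted p = 5.65e-05). The further Vcam1 probe sets were at -0.68 and -1.57 (adjusted p = 0.717 and 0.310). Of the loading genes Hspa5 was at -1.10 and Pdia3 at -1.07 (adjusted p = 0.245 and 0.296). None of the 9 heavy chain, 4 loading, 4 activator and assembly, 9 receptor and signaling, 6 other factor and 8 target genes was called (limma, 1, 2, 1, 2, 0 and 3 at an unadjusted p below 0.05). The medians were 0.21 for heavy chains, -0.75 for loading, 0.13 for activators and assembly, 0.28 for constitutive subunits, 0.14 for receptors and signaling, -0.21 for the other factors and 0.59 for targets.

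**Figure D4:**
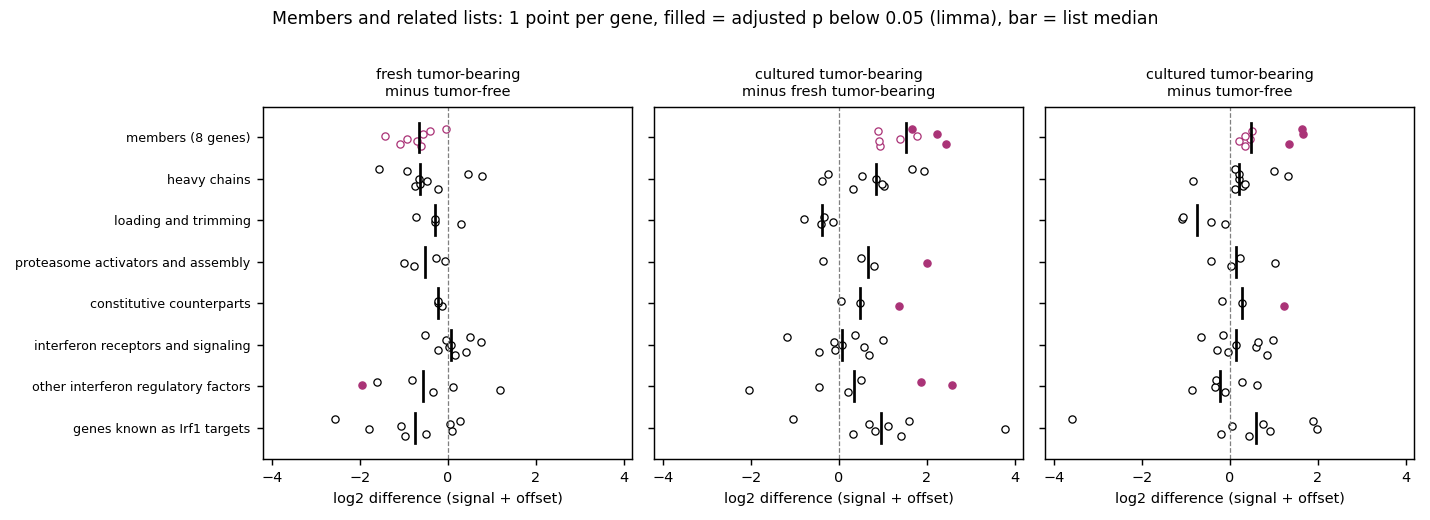
Log2 differences of signal plus offset (horizontal axes) for the 8 members and the 7 lists in the 3 comparisons, 1 point per gene, with bars at list medians and filled points for an adjusted p of limma below 0.05. In the second panel the members' median is 1.53 and that of the loading genes -0.38.

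The genes most like Irf1 and Tap1 over the 9 arrays were read from Pearson's r of log2(signal + 7.83), a description in which the points share group differences and arrays. Among all other genes tested Tap1 stood nearest to Irf1, at r = 0.960. Of genes that are no members the nearest to Irf1 were Lrrc8c (0.960), a subunit of volume-regulated anion channels, H2-K1 (0.955), the elongin gene Eloa (0.949), AW112010 (0.945) and Psme1 (0.943). AW112010 had 80.8, 71.2 and 107 in fresh against 279.5, 644 and 1637 in cultured arrays, and 207, 340 and 335 in tumor-free ones. The nearest to Tap1 were Tmem165 (0.964), Lrrc8c (0.957), the mitochondrial ribosomal gene Mrpl27 (0.955), Cd302 (0.952) and Eloa (0.951). Of the members, Tapbp and B2m had an r with Irf1 of 0.889 and 0.923, Tap2 of 0.857, Psmb8 of 0.806, Psmb9 of 0.797 and Psmb10 of 0.656. Among all other genes tested, their ranks in the same order were 39, 14, 73, 156, 175 and 536, so many genes outside the pathway stood nearer. Psmb9, which shares most of its promoter window with Tap1, had an r of 0.777 with it, at rank 175. Deviations of the same arrays from their group means gave another order. For these deviations the r of Psmb9 with Tap1 was 0.900, below that of Tap2 with Tapbp (0.975) and of Psmb8 with Psmb9 (0.949). A link of r to the shared window was not tested. With Irf1 it was 0.828 for Tap1, 0.799 for Psmb8, 0.791 for Psmb10 and 0.788 for Psmb9. For Tapbp, Tap2 and B2m it was 0.723, 0.689 and 0.460.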

How the data were processed

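CD11b+ spleen cells were measured on 9 Affymetrix MG-U74Av2 arrays, 3 per group, grouped by the sample titles. The authors deposited linear intensity, 1 MAS5 signal per probe set, per the submitters' processing notes, which name no version. Detection calls were not used, so it is unknown which dim signals exceed background. Precision is limited by the 9 arrays. Signals were taken as log2(signal + 7.83), with 7.83 the 20th percentile over all signals, which understates changes of dim genes. Of 12488 probe sets, 66 controls and the 30% with the lowest mean were left out, leaving 8695. One model with 3 group means and an intensity trend, with 6 residual degrees of freedom, was fitted in limma 3.58.1 (R 4.3.3), tested two-sided and adjusted by Benjamini-Hochberg at 0.05. The model was tested on simulated data with independent noise for each probe set and array. Arrays that stand apart were not simulated, so that test does not cover them.

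Symbols are those of the platform annotation, and probe sets with several were not named. A gene was represented by its brightest probe set. Named were all members, per list and comparison those called or up to 3 with the largest difference, and the 5 genes nearest to Irf1 and to Tap1. Members, lists and alternatives were chosen with earlier results of these data known. H2-K1 and H2-D1 among heavy chains, Irf4 in culture, and Irf7, Irf8 and Psme1 where uncalled were named after their values were seen. So were further probe sets of list genes and the single markers of tumor-free 1 and cultured 3. Arrays were also split at the median of their mean log2 spike-in signal into a high class (tumor-free 1, fresh 1 and 2, cultured 1 and 2) and a low class.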

Additional observations from a re-analysis of the deposited data

How the results depend on the processing

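The 3 arrays per group, with 1 in each that stood apart, limit these results. Of 19 alternatives with a test, the calls in culture held under 19 for Irf1 and Tap1 and under 18 for Tapbp. The calls between cultured and tumor-free cells held under 10 for Irf1, 12 for Tap1 and 15 for Tapbp. The number of members called was 0 for fresh against tumor-free cells, 3 in culture and 3 for cultured against tumor-free cells. Blocking on the spike-in class made these 1, 6 and 3, and leaving out any 1 array gave 0 to 2, 2 to 4 and 0 to 3. Without tumor-free 1, fresh 3 and cultured 3 together, chosen after seeing the data, they were 4, 6 and 3. Median centring made the last count 1, and only both groups in the model made it 0. Of all probe sets, 165, 234 and 107 were called, 277, 556 and 177 with the spike-in block, 2147, 1374 and 1810 without those 3 arrays, and 14 in the last comparison with only both groups. Without any 1 array these were 63 to 623, 74 to 489 and 24 to 529. Quantile normalization, offsets of 2.11 and 24.7, no filter on low values and no trend kept all these counts within 1.5 times; for median centring this held except for the count given. No scaling moved the median of all genes by over 0.1.

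Deviations of same-numbered arrays from their group means had correlations from -0.20 (tumor-free 2 and fresh 2) to 0.26 (fresh 3 and cultured 3). For fresh and cultured arrays of the same number they were 0.17, 0.03 and 0.26. Arrays of different number ranged from -0.28 (fresh 3 and cultured 1) to 0.26 (tumor-free 2 and fresh 3). A replicate block left 0, 3 and 3 members called, and 200, 258 and 144 probe sets, against 165, 234 and 107 without it.

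Signs turned as follows, and the cause was not tested. Without the 3 arrays, cultured against tumor-free cells gave -0.57 for Psmb10, -0.47 for Psmb8, -0.70 for Psmb9 and -0.14 for H2-Q4, and fresh against tumor-free cells 0.10 for Hsp90b1 and 0.054 for Psmb5. With the spike-in block, fresh against tumor-free cells gave 0.014 for Tapbp (100154_at) and 0.21 for its probe set 102689_at, the latter at 0.028 with quantile normalization. Without any 1 array, ranges for cultured against tumor-free cells were -0.39 to 0.75 (Psmb10), -0.031 to 0.82 (Psmb8), -0.22 to 0.76 (Psmb9), -0.25 to 0.39 (Psmb9 minus Psmb6) and -0.72 to 0.0017 (Irf5). For fresh against tumor-free cells they were -0.32 to 0.031 (Psmb5), -0.62 to 0.11 (Psme4), -0.13 to 0.019 (Tapbp, 100154_at) and -0.38 to 0.14 (102689_at). In culture they were -0.69 to 0.076 (Tap1, 162278_r_at) and -0.38 to 0.25 (Psmb8 minus Psmb5).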
